A study of Mus musculus with 27 samples.

Results

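The genes of cholesterol and fatty acid synthesis were followed through macrophages that differed in genotype, polarization and medium. Of 36 names listed for these routes, 35 had a mean of at least 1 CPM (counts scaled to the size of each library with edgeR's TMM factors) over the 24 libraries of batch 1, out of 50559 genes in the table and 13614 genes tested, and all 35 were tested. Acat2 was the name that fell below this level. The 35 genes comprised 6 enzymes of the mevalonate route (Hmgcs1, Mvk, Pmvk, Mvd, Idi1 and Fdps), 11 enzymes that lead from squalene synthesis to cholesterol (Fdft1, Sqle, Lss, Cyp51, Tm7sf2, Msmo1, Nsdhl, Hsd17b7, Ebp, Sc5d and Dhcr7), 7 genes of sterol control and handling (Insig1, Insig2, Srebf1, Srebf2, Scap, Stard4 and Mylip) and 11 fatty acid genes (Acly, Acaca, Fasn, Elovl6, Scd1, Scd2, Fads1, Fads2, Acss2, Me1 and Lpin1). Their mean levels over these libraries lay between 2.56 and 372 CPM.

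The cells were macrophages grown from the bone marrow of C57BL/6 female mice of 3 to 4 months, either WT or TRAP1 KO, that is, lacking the mitochondrial chaperone TRAP1. They were left unpolarized (Mφ, labelled M0) or polarized to M2 cells by 24 h of IL-4 (10 ng/ml), and were then kept for 48 h in control medium (DMEM) or in a medium conditioned by cells of malignant peripheral nerve sheath tumors (MPNST-CM), which gives 8 groups. The conditioned medium came from sMPNST cells, a mouse tumor line devoid of Nf1 and p53, and every culture had been differentiated in a medium that contains supernatant of L929 fibroblasts. RNA was sequenced from its 3′ end, and 3 libraries of each group belong to batch 1. The labels do not say that libraries of a group came from different mice, so the p-values measure only the spread between these libraries. In such bulk samples, fewer cells of a type and less RNA per cell cannot be told apart.

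Cells make cholesterol from acetyl-CoA through mevalonate and squalene, and fatty acids from acetyl-CoA through malonyl-CoA, elongases and desaturases. Transcription of both routes is driven by the SREBP factors, which are encoded by Srebf1 and Srebf2. When membranes hold enough sterol, INSIG proteins keep the escort protein SCAP, and with it SREBP, in the endoplasmic reticulum, and when sterol is short the SREBP is carried to the Golgi and cut into its active form. The LXR receptors, which are activated by oxysterols, work in the other direction: they induce sterol exporters such as Abca1 and Abcg1, the ubiquitin ligase Mylip, and also Srebf1 and Scd1. Macrophages are known for both programs, since they take up and export large amounts of cholesterol.

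The promoters of 5 of these genes are shown here since the values below turn on them, and since letters bound by factors that work with SREBP can be seen in some. RefSeq start sites on GRCm38.p6 were found for 28 of the 35 genes by symbol, with 37 promoters among them, and the 250 bases upstream of each start were searched on both strands. Capitals mark the letters CCAAT or their complement ATTGG, the core of the sites of NF-Y, and in Hmgcs1 also the letters TCACCCCAC, a match to the sterol regulatory element TCACNCCAC. Hmgcs1 was read at chr13:119690101-119690350 (plus strand), Lss at chr10:76531355-76531604 (plus strand), Cyp51 at chr5:4104698-4104947 (minus strand), Insig1 at chr5:28071162-28071411 (plus strand) and Fads2 at chr19:10101504-10101753 (minus strand), each 5′ to 3′ toward its gene.
Hmgcs1: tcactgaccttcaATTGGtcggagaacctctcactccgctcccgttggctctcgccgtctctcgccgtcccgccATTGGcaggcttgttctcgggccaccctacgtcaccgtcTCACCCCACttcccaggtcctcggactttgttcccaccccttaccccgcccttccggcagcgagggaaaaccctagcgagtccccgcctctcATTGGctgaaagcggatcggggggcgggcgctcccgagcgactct
Lss: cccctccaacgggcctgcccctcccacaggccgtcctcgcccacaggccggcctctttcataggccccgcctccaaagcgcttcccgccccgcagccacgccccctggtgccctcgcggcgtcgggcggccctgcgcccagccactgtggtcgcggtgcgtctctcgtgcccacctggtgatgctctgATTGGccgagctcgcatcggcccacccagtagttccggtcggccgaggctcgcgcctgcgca
Cyp51: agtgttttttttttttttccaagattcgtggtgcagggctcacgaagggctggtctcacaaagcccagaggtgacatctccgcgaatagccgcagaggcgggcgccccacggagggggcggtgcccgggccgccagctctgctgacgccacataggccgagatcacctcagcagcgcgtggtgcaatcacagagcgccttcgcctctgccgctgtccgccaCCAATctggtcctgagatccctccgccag
Insig1: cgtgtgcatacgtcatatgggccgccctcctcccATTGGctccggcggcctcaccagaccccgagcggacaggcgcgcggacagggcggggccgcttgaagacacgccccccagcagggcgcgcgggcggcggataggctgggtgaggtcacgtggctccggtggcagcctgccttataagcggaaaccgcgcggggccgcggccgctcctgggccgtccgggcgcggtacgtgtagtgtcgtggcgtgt
Fads2: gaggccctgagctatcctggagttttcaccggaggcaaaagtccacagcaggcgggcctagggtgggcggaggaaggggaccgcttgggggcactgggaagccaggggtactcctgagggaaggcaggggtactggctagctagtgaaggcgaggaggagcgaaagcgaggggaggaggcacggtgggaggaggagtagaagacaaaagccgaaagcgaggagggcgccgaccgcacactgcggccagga
Fads2 has no capitals, and neither motif was found in its window. The element TCACNCCAC was present in 1 of the 37 promoters, that of Hmgcs1, where it begins 137 bases before the start. It was present in 1.05% of 32817 mouse promoters of the same length. CCAAT in either orientation was present in 23 of the 37 promoters, or 62.2%, against 33.8% of all promoters. It was found for all 14 sterol enzymes with a promoter and for 3 of 8 fatty acid genes (Acss2, Fasn and Me1). The GC box GGGCGG was present in 26 of 37 promoters, or 70.3%, against 32.7% of all, and for 13 of the 14 sterol enzymes. These matches describe letters in a window and were not tested for binding.

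Between 7037684 and 9089792 reads were counted on genes in the libraries of batch 1. The 12 WT libraries held 10.4 to 18.8 CPM of Trap1, which had 0 counts in the 12 TRAP1 KO libraries, where a count of 0 allows up to 3 counts. The libraries were those of macrophages by their markers, since 7 macrophage genes summed to between 7829 and 12100.1 CPM, and the lists of lymphocytes, fibroblasts, Schwann cells, dendritic cells and neutrophils to at most 0.536, 4.35, 8.26, 12.2 and 19.98 CPM. A list of 3 endothelial names reached a higher sum, up to 56.7 CPM in WT Mφ in MPNST-CM, and is given by group further below. The 5 neutrophil markers were lower in TRAP1 KO than in WT cells in each of the 4 pairs of groups, for instance 1.63 to 2.24 CPM against 6.501 to 9.51 CPM in Mφ in control medium. Their part in the results was not tested. Retnla, a gene induced by IL-4, was at 214 to 2074 CPM in M2 libraries and at most 2.62 CPM in Mφ. Arg1, another gene induced by IL-4, did not separate them fully, at 4.15 to 674 CPM in M2 libraries and 0 to 4.20 CPM in Mφ. Xist, which is made from an inactive X chromosome, lay between 254 and 504 CPM in WT and at most 1.14 CPM in the 12 TRAP1 KO libraries of batch 1, although the labels give female mice for both. For genes on the X chromosome (Nsdhl and Ebp) and for every comparison of genotypes within batch 1, TRAP1 status and what Xist follows cannot be told apart. The 3 libraries of batch 2 are replicate 4 of WT Mφ in control medium, of TRAP1 KO M2 in control medium and of TRAP1 KO M2 in MPNST-CM. Both of its TRAP1 KO libraries held Xist (4220 and 2962 counts) and 2 and 0 counts of Trap1, and by rank correlation over genes they stood closer to other groups than to their own. The library labelled TRAP1 KO M2 in MPNST-CM had a rho of 0.983 with WT M2 in control medium and 0.950 with its own group, and that labelled TRAP1 KO M2 in control medium a rho of 0.970 with TRAP1 KO Mφ in MPNST-CM and 0.915 with its own. The WT Mφ library of batch 2 in control medium was closest to its own group (rho 0.988). Its mean log2 CPM of the enzymes from squalene onward was 5.27, against 4.64 to 4.79 in batch 1. Fads2 was at 120 CPM in it, within the 114 to 152 CPM of WT Mφ in MPNST-CM. All 24 libraries of batch 1 were closest to their own group. The values below are those of batch 1, which leaves out this WT library as well, and batch 2 is given beside part of them.

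**Figure D1:**
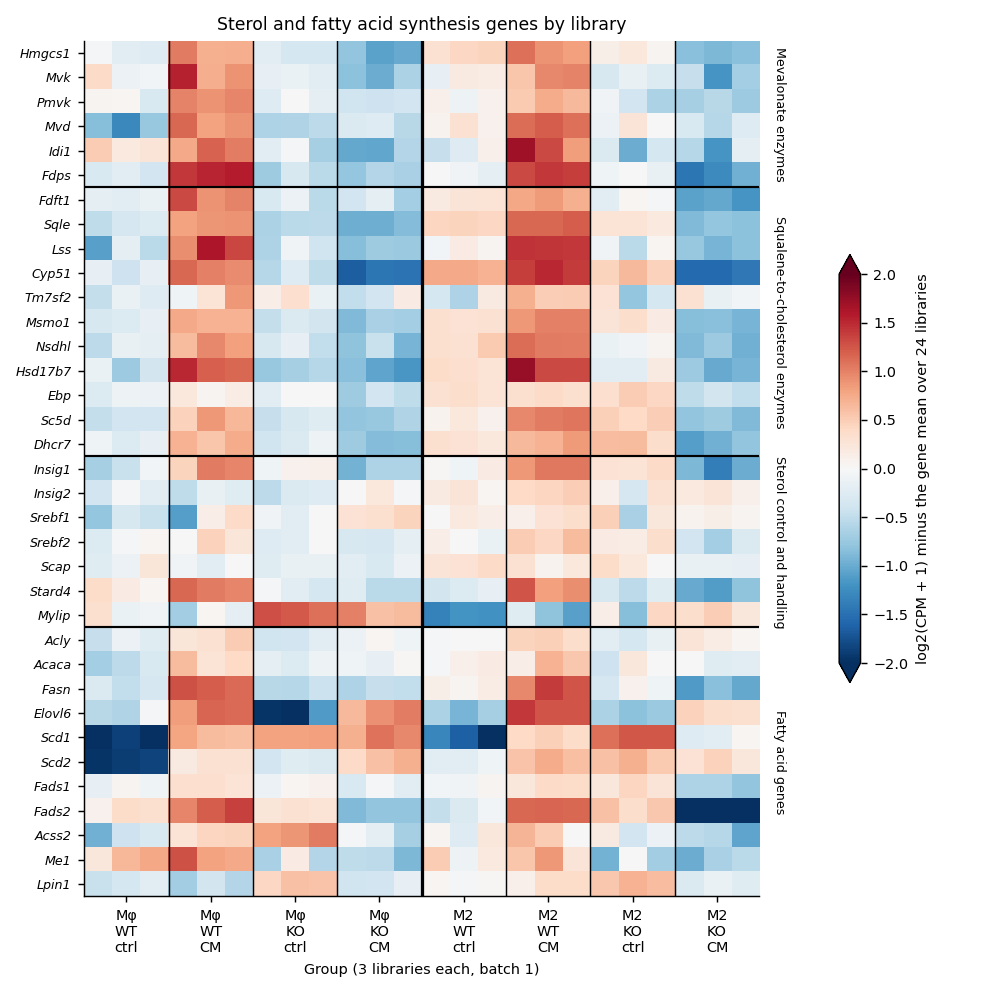
Level of the 35 genes (rows, by set) in the 24 libraries of batch 1 (columns, 3 per group), as log2(CPM + 1) minus the gene's mean over these libraries; ctrl stands for control medium, CM for MPNST-CM and KO for TRAP1 KO, and colors end at 2 in each direction. The columns of WT cells in MPNST-CM are mostly red for the sterol enzymes in both Mφ and M2, and those of TRAP1 KO cells in MPNST-CM are mostly blue.

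The first question was how the synthesis genes responded to the tumor cell medium in WT macrophages. In WT Mφ, MPNST-CM raised 27 of the 35 genes and lowered 0 (edgeR's quasi-likelihood test, adjusted p under 0.05), where 11.3% and 9.96% of all genes tested were called higher and lower. WT M2 cells gave the same numbers, 27 higher and 0 lower, against 11.2% and 13.3% of all genes. The median log2 fold change of the 35 genes was 1.01 in Mφ and 0.69 in M2, and that of all genes tested -0.015 and -0.029. Both the sterol and the fatty acid genes took part. Of the mevalonate enzymes 5 of 6 rose in Mφ and 6 of 6 in M2, and of the enzymes from squalene onward 10 of 11 in each. Of the genes of sterol control 3 of 7 rose in each (Insig1, Srebf2 and Stard4), and of the fatty acid genes 9 of 11 in Mφ and 8 of 11 in M2. With all 27 libraries in the fit, those of batch 2 included, 17 genes were higher in Mφ and 15 in M2, and with the 2 TRAP1 KO libraries of batch 2 left out of it (25 libraries, chosen after seeing the data) 27 in each. In batch 1, the sterol enzymes that did not pass were Idi1 (log2 fold change 0.85 ± 0.35, adjusted p = 0.0829) and Tm7sf2 (log2 fold change 0.85 ± 0.32, adjusted p = 0.0604) in Mφ and Ebp (log2 fold change 0.029 ± 0.086, adjusted p = 0.863) in M2. The ± after a log2 fold change is its standard error throughout.

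The mevalonate enzymes build the isoprenoid units. Mvd, the decarboxylase that makes isopentenyl diphosphate, was at 13.4, 9.64 and 14.4 CPM in WT Mφ in control medium and at 56.5, 44.6 and 47.4 CPM in MPNST-CM, a 3.96-fold difference (log2 fold change 1.98 ± 0.14, adjusted p = 6.18e-11). In WT M2 it went from 26.3, 30.96 and 26.5 CPM to 55.3, 59.5 and 54.9 CPM (log2 fold change 1.02 ± 0.13, adjusted p = 1.06e-06). In both cell types each library in MPNST-CM lay above each library in control medium. Fdps, the synthase of farnesyl diphosphate from which sterols and prenyl groups are made, was at 24.7, 26.4 and 23.2 CPM against 83.6, 90.0 and 92.9 CPM in WT Mφ (log2 fold change 1.84 ± 0.11, adjusted p = 2.63e-12). The same enzyme was at 30.5, 29.3 and 27.1 CPM against 78.4, 83.8 and 81.6 CPM in WT M2 (log2 fold change 1.49 ± 0.11, adjusted p = 5.45e-11), again with no overlap. Mvk, the kinase that phosphorylates mevalonate, was scarcer, at 7.97, 5.34 and 5.58 CPM in control medium and 18.9, 10.4 and 11.8 CPM in MPNST-CM in WT Mφ (log2 fold change 1.11 ± 0.23, adjusted p = 0.000687). Its values in WT M2 were 5.11, 6.74 and 6.60 CPM and 9.05, 12.3 and 12.7 CPM (log2 fold change 0.88 ± 0.23, adjusted p = 0.00586). Mvk thus rose in both cell types with groups that did not overlap. Idi1, the isomerase of isopentenyl diphosphate, was the least abundant of the 6 enzymes, at 3.31, 2.48 and 2.62 CPM and 4.17, 5.88 and 5.18 CPM in WT Mφ. In WT M2 it was at 1.202, 1.55 and 2.25 CPM in control medium and 8.80, 6.59 and 4.40 CPM in MPNST-CM (log2 fold change 1.97 ± 0.37, adjusted p = 0.000216), the mevalonate enzyme with the largest response there. Hmgcs1, the synthase at the entry of the route, and Pmvk, the second kinase, rose with log2 fold changes of 1.01 and 1.08 in Mφ and 0.56 and 0.64 in M2.

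From squalene onward, Lss, the synthase that folds the chain into lanosterol, had the largest response in both cell types. It was at 8.46, 16.4 and 12.8 CPM in WT Mφ in control medium and 37.3, 60.3 and 49.4 CPM in MPNST-CM (log2 fold change 1.97 ± 0.19, adjusted p = 2.52e-08). In WT M2 the values were 18.3, 21.4 and 19.9 CPM and 53.7, 52.9 and 52.2 CPM (log2 fold change 1.41 ± 0.18, adjusted p = 1.47e-06). No library in control medium reached the lowest in MPNST-CM. Cyp51, the lanosterol demethylase, was more abundant, at 78.5, 65.4 and 78.2 CPM and 197, 177 and 170.2 CPM in WT Mφ (log2 fold change 1.29 ± 0.094, adjusted p = 1.13e-10). In WT M2 it was at 149, 149.7 and 142 CPM and 231, 250.7 and 233 CPM (log2 fold change 0.70 ± 0.092, adjusted p = 1.56e-06). The groups were apart in both, and the level in control medium was already higher in M2 than in Mφ. Nsdhl, a sterol dehydrogenase encoded on the X chromosome, was at 18.9, 24.8 and 23.9 CPM and 43.5, 54.9 and 49.8 CPM in WT Mφ (log2 fold change 1.13 ± 0.13, adjusted p = 2.69e-07) and rose in WT M2 as well (log2 fold change 0.69 ± 0.12, adjusted p = 0.000117). The other enzymes of this stretch that passed had log2 fold changes between 0.30 for the isomerase Ebp (lost without replicate 1 of either medium) and 1.76 for the ketoreductase Hsd17b7 in Mφ, and between 0.48 for Dhcr7, which performs the last reduction, and 1.19 for Hsd17b7 in M2, leaving Lss aside. Exons of 13 of the 35 genes overlap those of another gene in GENCODE M21, Lss, Cyp51 (with Akap9), Fdft1 (with Ctsb) and Tm7sf2 (with Vps51, on the same strand) among them, and 4 of the 13 overlap a gene on the same strand. The library kit keeps strand, but whether the counting used it is not given in the sources used here. Reads of the pairs on the same strand may be mixed, and those on opposite strands (Akap9 and Ctsb) only if strand was not used.

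Among the genes of control and handling, Insig1 moved with the enzymes. It was at 21.3, 25.1 and 33.4 CPM in WT Mφ in control medium and 47.1, 72.3 and 68.9 CPM in MPNST-CM (log2 fold change 1.23 ± 0.16, adjusted p = 1.55e-06), and at 35.3, 32.6 and 38.9 CPM and 63.7, 72.5 and 72.6 CPM in WT M2 (log2 fold change 0.97 ± 0.15, adjusted p = 2.42e-05). Both pairs of groups were apart. Stard4, which carries cholesterol between membranes, was at 55.7, 48.6 and 44.4 CPM and 96.3, 89.8 and 85.8 CPM in WT Mφ (log2 fold change 0.87 ± 0.12, adjusted p = 7.88e-06). In WT M2 it was at 33.2, 35.4 and 38.3 CPM and 105, 77.1 and 82.9 CPM (log2 fold change 1.31 ± 0.13, adjusted p = 8.13e-09). The factors themselves moved less. Srebf2, whose protein mainly drives sterol genes, was at 73.6, 88.5 and 91.9 CPM and 89.6, 123 and 106 CPM in WT Mφ, groups that overlapped (log2 fold change 0.33 ± 0.12, adjusted p = 0.0481), and this call was lost without replicate 1 or 2 of the control medium or replicate 2 or 3 of MPNST-CM. In WT M2 Srebf2 was at 97.7, 89.2 and 81.4 CPM and 128, 120.0 and 139 CPM, with no overlap (log2 fold change 0.53 ± 0.12, adjusted p = 0.00123). Srebf1, whose protein mainly drives fatty acid genes, was at 26.2, 36.1 and 32.9 CPM and 20.5, 49.9 and 59.4 CPM in WT Mφ and at 45.2, 52.1 and 49.98 CPM and 48.6, 55.9 and 58.4 CPM in WT M2. It passed the threshold in none of the 16 comparisons made, and its log2 fold changes in WT cells were 0.45 ± 0.28 and 0.14 ± 0.28. Insig2, Scap and Mylip did not pass in WT cells in either medium comparison.

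The fatty acid genes held the largest responses of all. Scd1, a stearoyl-CoA desaturase that makes oleate, was at 4.42, 6.78 and 4.33 CPM in WT Mφ in control medium and 48.3, 43.1 and 42.05 CPM in MPNST-CM, an 8.63-fold rise (log2 fold change 3.11 ± 0.16, adjusted p = 1.40e-13). In WT M2 it went from 10.5, 8.16 and 6.18 CPM to 36.3, 38.5 and 35.6 CPM (log2 fold change 2.16 ± 0.15, adjusted p = 3.06e-11). The groups lay far apart in both cell types, but the WT Mφ library of batch 2 in control medium was at 40.1 CPM, close to the libraries in MPNST-CM. With that library in the fit (25 libraries) the log2 fold change of Scd1 in WT Mφ was 1.62. Elovl6, the elongase that turns palmitate into stearate, was at 11.3, 10.8 and 16.7 CPM and 31.3, 39.3 and 38.3 CPM in WT Mφ (log2 fold change 1.48 ± 0.18, adjusted p = 8.79e-07). Its level in WT M2 was 10.7, 8.42 and 10.4 CPM and 47.01, 41.8 and 42.1 CPM (log2 fold change 2.15 ± 0.19, adjusted p = 1.34e-09). Elovl6 therefore rose in both without overlap. Fads2, the desaturase at the start of polyunsaturated fatty acid synthesis, was at 60.5, 73.7 and 71.5 CPM and 113, 133 and 148 CPM in WT Mφ (log2 fold change 0.94 ± 0.11, adjusted p = 2.28e-07) and at 40.7, 46.5 and 54.9 CPM and 127, 128 and 127 CPM in WT M2 (log2 fold change 1.43 ± 0.11, adjusted p = 8.85e-11). Fasn, the synthase of palmitate, rose by 1.60 and 1.13 on the log2 scale, and Acly, which supplies acetyl-CoA from citrate, by 0.63 and 0.44. Me1, the malic enzyme that supplies NADPH, did not pass in either (0.43 ± 0.27 and 0.42 ± 0.29).

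The second question was how cells without TRAP1 responded to the same medium. In TRAP1 KO Mφ, MPNST-CM raised 4 of the 35 genes and lowered 13, against 14.8% and 18.1% of all genes tested. The number of higher genes was 2 without replicate 1 in control medium or without replicate 2 in MPNST-CM. In TRAP1 KO M2 cells 2 genes were higher and 24 were lower, against 16.7% and 20.2% of all genes. The median log2 fold change of the 35 genes was -0.38 in Mφ and -0.78 in M2, and that of all genes -0.042 and -0.012. Of the 17 sterol enzymes, 9 fell in Mφ of this genotype and 13 in its M2 cells, and 0 rose in either. The fatty acid genes were split, with 3 higher (Acly, Elovl6 and Scd2) and 3 lower (Fads2, Acss2 and Lpin1) in Mφ, and 2 higher (Acly and Elovl6) and 7 lower in M2. The TRAP1 KO counts rest on batch 1, in Mφ as in M2. With all 27 libraries in the fit 0 genes were higher and 2 lower in M2, and 3 higher and 1 lower in Mφ. No library of TRAP1 KO Mφ belongs to batch 2, but the fit estimates the spread of a gene over all groups together. With the 2 TRAP1 KO libraries of batch 2 left out (25 libraries), 2 genes were higher and 21 lower in M2, and 4 higher and 11 lower in Mφ.

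Among the sterol enzymes that passed, Cyp51 fell most. It was at 58.9, 73.3 and 61.3 CPM in TRAP1 KO Mφ in control medium and 27.5, 31.7 and 31.1 CPM in MPNST-CM (log2 fold change -1.10 ± 0.10, adjusted p = 1.04e-09). In TRAP1 KO M2 it went from 121, 138 and 121 CPM to 29.1, 29.4 and 32.1 CPM (log2 fold change -2.07 ± 0.10, adjusted p = 2.77e-15). All libraries in MPNST-CM lay below all those in control medium, the reverse of the order in WT cells. In batch 2 the library labelled TRAP1 KO M2 in MPNST-CM held 143 CPM of Cyp51 and that labelled control medium 42.8 CPM, an order opposite to that of batch 1. Fdps was at 18.4, 24.3 and 20.9 CPM and 17.5, 20.2 and 19.1 CPM in TRAP1 KO Mφ, groups that overlapped (log2 fold change -0.16 ± 0.12, adjusted p = 0.322). In TRAP1 KO M2 it was at 29.0, 30.7 and 27.7 CPM and 10.6, 12.1 and 15.2 CPM (log2 fold change -1.20 ± 0.12, adjusted p = 5.81e-09), a fall without overlap. Mvk was at 5.13, 5.24 and 4.87 CPM and 2.87, 2.43 and 3.44 CPM in TRAP1 KO Mφ (log2 fold change -0.80 ± 0.27, adjusted p = 0.0243), a call that was lost without replicate 1 or 2 of either medium. Its values in TRAP1 KO M2 were 4.50, 5.22 and 4.69 CPM and 3.97, 2.03 and 3.29 CPM, and the difference did not pass (log2 fold change -0.65 ± 0.27, adjusted p = 0.0668). Mvd was at 16.01, 16.2 and 17.1 CPM and 20.2, 20.8 and 16.7 CPM in Mφ, where it did not pass (log2 fold change 0.23 ± 0.14, adjusted p = 0.245), and at 22.96, 29.99 and 25.2 CPM and 19.97, 16.5 and 20.8 CPM in M2 (log2 fold change -0.45 ± 0.14, adjusted p = 0.0108, lost without replicate 2 of either medium). Idi1 was scarce in TRAP1 KO cells, at 1.63, 1.96 and 0.921 CPM and 0.499, 0.487 and 1.02 CPM in Mφ and 1.501, 0.536 and 1.38 CPM and 1.06, 0.339 and 1.65 CPM in M2, and passed in neither. Lss was at 12.004, 18.1 and 14.2 CPM and 10.1, 11.2 and 10.95 CPM in Mφ (log2 fold change -0.45 ± 0.20, adjusted p = 0.0939). In M2 it was at 18.01, 12.9 and 19.6 CPM and 10.8, 9.49 and 10.4 CPM (log2 fold change -0.72 ± 0.20, adjusted p = 0.00711, lost without replicate 3 in control medium). Of the genes just given, Lss, Fdps and Mvd passed in M2 alone, and the test of the difference between cell types passed for Fdps (log2 fold change -1.04 ± 0.17, adjusted p = 7.20e-05) and Mvd (log2 fold change -0.68 ± 0.20, adjusted p = 0.0228, lost without replicate 1 or 2 of Mφ in MPNST-CM, replicate 1 of Mφ in control medium or replicate 2 of M2 in either medium) and not for Lss (log2 fold change -0.26 ± 0.29, adjusted p = 0.699).

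Insig1 followed the enzymes in TRAP1 KO cells too. It was at 32.6, 36.9 and 37.0 CPM in control medium and 17.5, 22.3 and 22.2 CPM in MPNST-CM in Mφ (log2 fold change -0.78 ± 0.16, adjusted p = 0.000377) and at 42.5, 41.9 and 45.5 CPM and 17.99, 12.7 and 16.96 CPM in M2 (log2 fold change -1.45 ± 0.16, adjusted p = 6.02e-08), a fall of 2.74-fold in the latter. Srebf2 was at 75.0, 76.7 and 90.1 CPM and 71.8, 70.8 and 78.3 CPM in Mφ (log2 fold change -0.13 ± 0.12, adjusted p = 0.450). In M2 it was at 100.1, 99.4 and 114 CPM and 68.4, 55.5 and 72.9 CPM, with no overlap (log2 fold change -0.67 ± 0.12, adjusted p = 4.89e-05). Srebf1 was at 43.1, 38.6 and 45.1 CPM and 55.9, 56.7 and 61.8 CPM in Mφ (log2 fold change 0.46 ± 0.28, adjusted p = 0.236) and at 63.3, 28.5 and 53.2 CPM and 47.7, 49.5 and 47.2 CPM in M2 (log2 fold change -0.003 ± 0.28, adjusted p = 0.996). Stard4 fell in M2, from 34.5, 29.6 and 36.1 CPM to 21.03, 19.4 and 24.2 CPM (log2 fold change -0.63 ± 0.13, adjusted p = 0.000408), and did not pass in Mφ, where it was at 42.5, 36.5 and 33.7 CPM and 36.5, 29.4 and 29.3 CPM.

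Among the fatty acid genes of TRAP1 KO cells, Fads2 fell most in M2, and Acss2 (log2 fold change -1.37 ± 0.25, adjusted p = 8.41e-05) and then Fads2 in Mφ. In Mφ Fads2 was at 67.6, 70.2 and 68.8 CPM in control medium and 30.2, 32.4 and 32.3 CPM in MPNST-CM (log2 fold change -1.12 ± 0.11, adjusted p = 4.83e-09). In M2 it went from 86.0, 73.1 and 82.7 CPM to 11.4, 11.8 and 9.87 CPM, a 7.31-fold fall (log2 fold change -2.87 ± 0.12, adjusted p = 2.30e-16). The libraries of batch 2 labelled TRAP1 KO M2 held 9.38 CPM in control medium and 78.3 CPM in MPNST-CM, again the opposite order. Elovl6 and Acly rose in all 4 comparisons of media. Elovl6 was at 3.63, 3.14 and 7.23 CPM and 27.2, 33.1 and 35.5 CPM in TRAP1 KO Mφ (log2 fold change 2.77 ± 0.21, adjusted p = 2.50e-11) and at 10.7, 9.24 and 9.79 CPM and 23.8, 21.9 and 21.4 CPM in TRAP1 KO M2 (log2 fold change 1.18 ± 0.19, adjusted p = 1.79e-05). The changes of Acly were smaller, 0.28 ± 0.093 in Mφ and 0.38 ± 0.093 in M2 cells of the TRAP1 KO, and the former call was lost without replicate 1 or 2 in control medium or replicate 2 in MPNST-CM. Scd1 was at 48.8, 48.7 and 49.3 CPM and 45.6, 59.2 and 54.3 CPM in TRAP1 KO Mφ, which did not pass (log2 fold change 0.12 ± 0.13, adjusted p = 0.551). In TRAP1 KO M2 it fell from 60.3, 66.3 and 65.9 CPM to 22.8, 23.5 and 28.2 CPM (log2 fold change -1.37 ± 0.13, adjusted p = 3.94e-09).

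**Figure D2:**
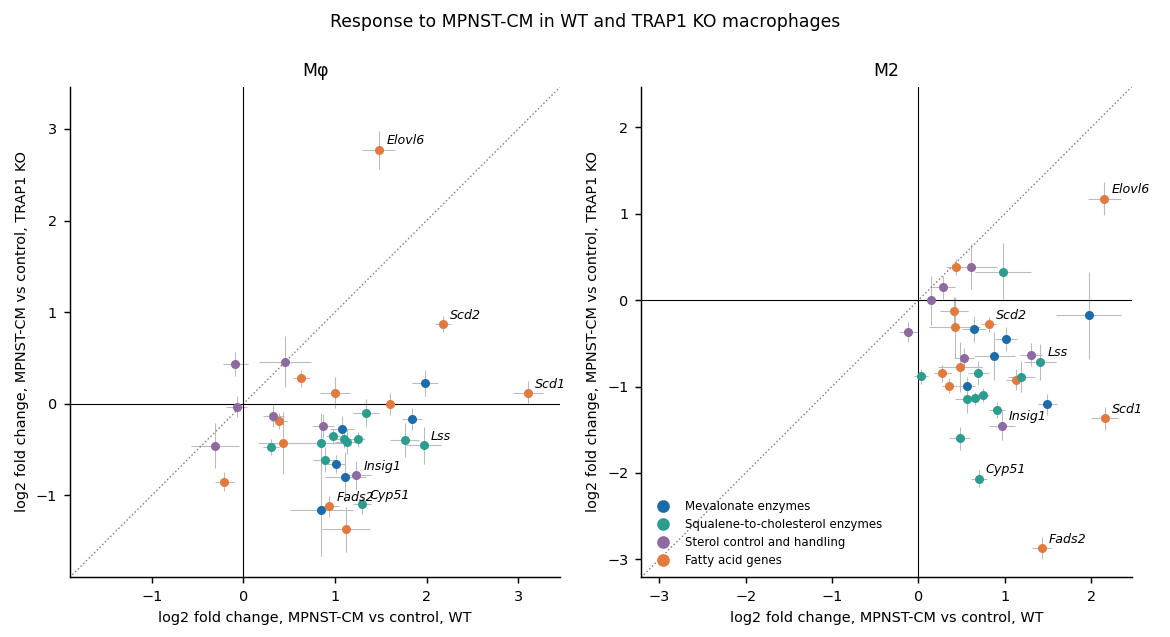
Log2 fold change of each of the 35 genes between MPNST-CM and control medium in WT (horizontal axis) and TRAP1 KO cells (vertical axis), for Mφ (left) and M2 (right), with the standard error as bars, the sets of genes in colors and equal responses on the dotted line. Most points lie to the right of 0 and below 0, and Elovl6 lies above 0 in both panels.

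The difference between these responses was tested directly, as the interaction of genotype and medium. It is the log2 fold change between media in TRAP1 KO cells minus that in WT cells, with signs kept. A negative value can thus be a weaker rise, a fall where WT rose, or a larger fall (Lpin1 in Mφ). In Mφ the interaction passed with a negative value for 26 of the 35 genes and a positive value for 1, against 11.5% and 8.17% of all genes tested. In M2 it was negative for 27 and positive for 0, against 10.8% and 9.36%. The median interaction of the 35 genes was -1.44 in Mφ and -1.53 in M2, and that of all genes -0.014 and 0.016. All sterol enzymes but Tm7sf2 were among the genes with a negative interaction, 16 of 17 in each cell type. The call of Idi1 was lost without replicate 1 or 2 in MPNST-CM or replicate 2 in control medium of TRAP1 KO Mφ, and without replicate 1 or 3 in control medium or replicate 2 in MPNST-CM of TRAP1 KO M2. In M2 the largest interactions were those of Fads2 (log2 fold change -4.30 ± 0.16, adjusted p = 8.62e-16), Scd1 (-3.53 ± 0.20) and Cyp51 (-2.77 ± 0.14). In Mφ they were those of Scd1 (log2 fold change -2.99 ± 0.21, adjusted p = 2.54e-11), Acss2 (-2.49 ± 0.36) and Lss (-2.42 ± 0.28). The gene with a higher response in TRAP1 KO Mφ was Elovl6 (log2 fold change 1.29 ± 0.28, adjusted p = 0.00105), and there were 2 such genes without replicate 1 of WT Mφ in control medium or replicate 2 of WT Mφ in MPNST-CM. In M2 its response was lower in TRAP1 KO cells (log2 fold change -0.98 ± 0.27, adjusted p = 0.0106), so that it rose in both genotypes, more steeply in TRAP1 KO Mφ and less steeply in TRAP1 KO M2. A stricter count takes the genes that rose in WT and fell in TRAP1 KO cells, each past the threshold. It gave 12 genes in Mφ (Hmgcs1, Mvk, Sqle, Cyp51, Msmo1, Nsdhl, Ebp, Sc5d, Dhcr7, Insig1, Fads2 and Acss2) and 21 in M2, where 1.56% and 2.09% of all genes tested met the same criterion. Genes that rose in both genotypes were Acly, Elovl6 and Scd2 in Mφ, and Acly and Elovl6 in M2, against 4.87% and 5.71% of all genes. With all 27 libraries, and hence the libraries of batch 2, the interaction was negative for 13 genes in Mφ and 8 in M2. Without the 2 TRAP1 KO libraries of batch 2 it was negative for 26 and 27. In that last fit the interaction of Scd1 in Mφ was -1.47 and no longer passed.

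**Figure D3:**
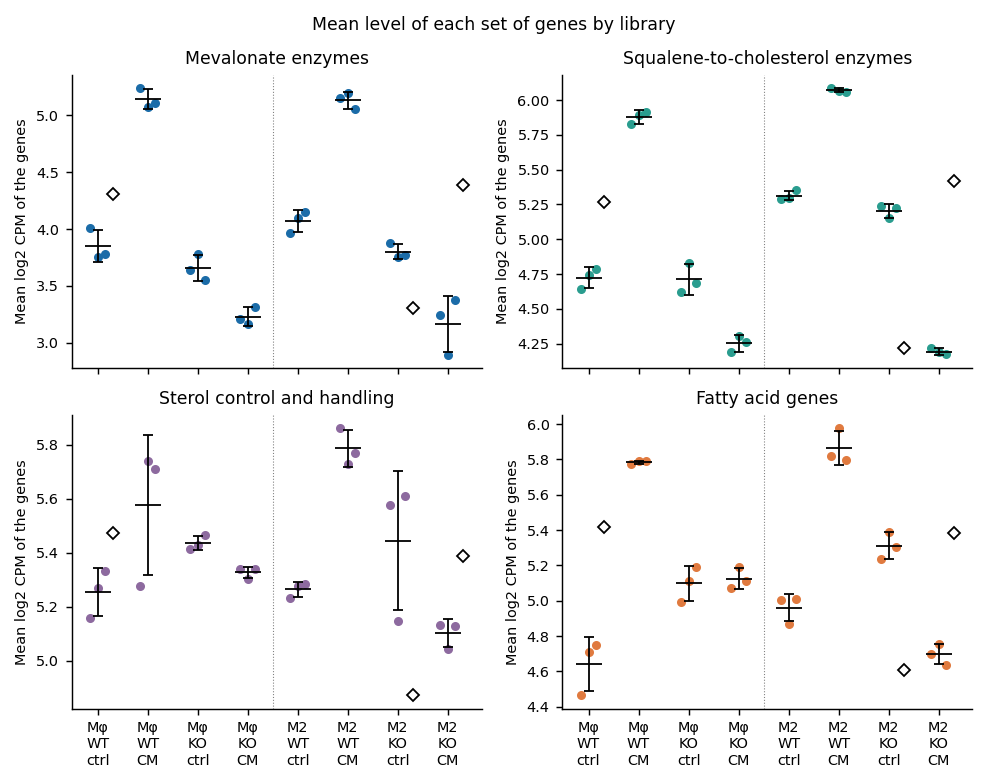
Mean log2 CPM over the genes of each set in every library, by group (Mφ left and M2 right of the dotted line; ctrl, control medium; CM, MPNST-CM). Dots are the 3 libraries of batch 1 with their mean and SD as bars, and open diamonds are the libraries of batch 2. The mevalonate and squalene-to-cholesterol enzymes are highest in WT cells in MPNST-CM and lowest in TRAP1 KO cells in MPNST-CM, with the diamonds of TRAP1 KO M2 in the opposite order.

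Taken as sets, the mean log2 CPM of the mevalonate enzymes was 3.85 ± 0.14 in WT Mφ in control medium, 5.14 ± 0.089 in WT Mφ in MPNST-CM, 3.66 ± 0.11 in TRAP1 KO Mφ in control medium and 3.23 ± 0.08 in TRAP1 KO Mφ in MPNST-CM (SD, n = 3 each). The same means in M2 were 4.07 ± 0.094, 5.13 ± 0.072, 3.80 ± 0.066 and 3.17 ± 0.25, in the same order of groups. The enzymes from squalene onward were at 4.73 ± 0.074, 5.88 ± 0.047, 4.71 ± 0.11 and 4.25 ± 0.058 in Mφ and 5.31 ± 0.035, 6.07 ± 0.016, 5.205 ± 0.049 and 4.19 ± 0.023 in M2. For both sterol sets the means of the genotypes lay closer together in control medium than in MPNST-CM. Their libraries overlapped in Mφ in control medium and in no other pair, with TRAP1 KO below WT in M2 in control medium and in both cell types in MPNST-CM. The fatty acid genes were at 4.64 ± 0.15, 5.78 ± 0.0078, 5.10 ± 0.10 and 5.13 ± 0.059 in Mφ and at 4.96 ± 0.079, 5.86 ± 0.10, 5.31 ± 0.075 and 4.70 ± 0.059 in M2. This set differed from the sterol sets in that TRAP1 KO cells of batch 1 lay above WT cells in control medium in both cell types, without overlap. TRAP1 KO Mφ also had nearly equal means in both media. Batch 2 did not keep that order in control medium. Its WT Mφ library was at 5.42, above the 4.99 to 5.19 of TRAP1 KO Mφ, and its TRAP1 KO M2 library at 4.61, below the 4.87 to 5.01 of WT M2. The difference in control medium was not shared by all 11 genes: the median log2 fold change between genotypes was 0.072 in Mφ and 0.012 in M2, with 4 and 5 genes negative. WT cells in MPNST-CM were the group with the highest mean for all 17 sterol enzymes in Mφ and 16 of 17 in M2, and for 7 and 9 of the 11 fatty acid genes. These means describe the sets and were given no test, since the genes were chosen with results of these data known.

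The third comparison set the genotypes side by side within each medium. In control medium 5 of the 35 genes were higher and 3 lower in TRAP1 KO Mφ than in WT Mφ, against 8.64% and 7.97% of all genes tested, and 7 were higher and 1 lower in TRAP1 KO M2, against 8.56% and 7.87%. In MPNST-CM 3 were higher and 26 lower in TRAP1 KO Mφ, against 19.1% and 19.2%, and 1 was higher and 31 lower in TRAP1 KO M2, against 17.2% and 16.8%. The median log2 fold change of the 35 genes was -0.071 and -0.10 in control medium (Mφ, then M2) and -1.43 and -1.59 in MPNST-CM, beside medians of all genes of 0.027, 0.017, 0.043 and 0.053. These comparisons share their libraries with those between media. In control medium 0 of the 17 sterol enzymes passed in Mφ, and in M2 Sc5d was higher (log2 fold change 0.34 ± 0.094, adjusted p = 0.0131) and Nsdhl lower (log2 fold change -0.45 ± 0.13, adjusted p = 0.0177). The call of Sc5d was lost without replicate 1 or 3 of TRAP1 KO or replicate 2 or 4 of WT. Nsdhl was at 34.9, 34.5 and 40.0 CPM in WT and 25.1, 26.4 and 28.7 CPM in TRAP1 KO M2 in control medium, without overlap, and the call was lost without replicate 1 of TRAP1 KO or replicate 4 of WT. The number of lower genes in control medium depended on single libraries: it was 1 in Mφ without replicate 2 of WT or replicate 3 of TRAP1 KO, and in M2 it was between 0 and 3 without 1 of 5 libraries (replicates 2, 3 and 4 of WT, and 2 and 3 of TRAP1 KO). In MPNST-CM 16 of the 17 sterol enzymes were lower in TRAP1 KO cells, in Mφ and in M2 alike, and the enzyme that did not pass was Tm7sf2.

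In MPNST-CM, Cyp51 differed most between genotypes among the squalene-to-cholesterol enzymes. With the values of Cyp51 given above, its log2 fold change between TRAP1 KO and WT was -2.59 ± 0.10 in Mφ and -2.98 ± 0.10 in M2, the latter a 7.88-fold lower level (adjusted p = 5.64e-17 and 8.54e-18). In control medium the same gene differed by -0.20 ± 0.10 and -0.21 ± 0.093 and did not pass. Idi1 led the mevalonate enzymes (log2 fold change -2.90 ± 0.43, adjusted p = 5.11e-06 in Mφ and log2 fold change -2.71 ± 0.40, adjusted p = 4.91e-06 in M2), and Insig1 the genes of control (-1.60 ± 0.16 and -2.14 ± 0.16). Nsdhl was at 15.4, 20.1 and 14.01 CPM in TRAP1 KO Mφ and 14.5, 16.3 and 13.7 CPM in TRAP1 KO M2 in MPNST-CM, below the 43.5, 54.9 and 49.8 CPM and 61.3, 58.2 and 57.4 CPM of WT cells. Fads2 was the fatty acid gene with the largest difference (-2.05 ± 0.11 in Mφ and -3.53 ± 0.12 in M2), the latter equal to 11.6-fold lower expression. Srebf2 was lower in TRAP1 KO cells in MPNST-CM (-0.53 ± 0.12 and -0.98 ± 0.12) and Srebf1 passed in neither cell type (0.42 ± 0.28 and -0.17 ± 0.28). In the fit of all 27 libraries the number of lower genes in MPNST-CM was 25 in Mφ and 26 in M2.

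A small number of genes was higher in TRAP1 KO cells already in control medium, and Scd1 stood out. With the values given above, Scd1 was 9.49-fold higher in TRAP1 KO than in WT Mφ (log2 fold change 3.25 ± 0.16, adjusted p = 8.15e-14) and 7.76-fold higher in M2 (log2 fold change 2.96 ± 0.15, adjusted p = 7.38e-13). In MPNST-CM the genotypes were close in Mφ (0.25 ± 0.13) and TRAP1 KO was lower in M2 (-0.57 ± 0.14). The 3 TRAP1 KO Mφ libraries in control medium thus lay just above the 3 WT Mφ libraries in MPNST-CM. The library of WT Mφ in control medium in batch 2, at 40.1 CPM, was also near that level, and with it in the fit (25 libraries) the log2 fold change between genotypes in Mφ was 1.69. Scd2, the second desaturase, rose likewise in TRAP1 KO cells in control medium (1.61 ± 0.089 in Mφ and 0.79 ± 0.086 in M2), as did the phosphatase Lpin1 (0.88 ± 0.10 and 0.61 ± 0.10). Acss2, which makes acetyl-CoA from acetate, was higher in TRAP1 KO Mφ (log2 fold change 1.70 ± 0.26, adjusted p = 1.91e-05) and not in M2 (log2 fold change -0.13 ± 0.27, adjusted p = 0.801), a difference between cell types that was not tested. Elovl6 went the other way in Mφ in control medium (log2 fold change -1.48 ± 0.22, adjusted p = 1.41e-05), with groups that did not overlap.

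Within batch 1, Mylip was the gene of the 35 that was higher in TRAP1 KO cells in all 4 comparisons of genotypes. Its product is an E3 ubiquitin ligase that marks lipoprotein receptors for degradation. In Mφ it was at 37.0, 26.7 and 27.9 CPM in WT and 73.3, 70.2 and 64.4 CPM in TRAP1 KO cells in control medium (log2 fold change 1.18 ± 0.25, adjusted p = 0.00224). In MPNST-CM the Mφ values were 17.7, 30.3 and 25.8 CPM and 60.3, 44.6 and 46.2 CPM (log2 fold change 1.03 ± 0.26, adjusted p = 0.00328). The M2 cells held 10.97, 12.3 and 12.2 CPM in WT and 32.3, 15.9 and 39.7 CPM in TRAP1 KO cells in control medium (log2 fold change 1.30 ± 0.29, adjusted p = 0.00340), a call that was lost when the compared groups were fitted alone. The genotypes did not overlap in any of these pairs. In M2 in MPNST-CM they were at 24.6, 16.3 and 13.3 CPM and 37.96, 42.03 and 34.8 CPM (log2 fold change 1.08 ± 0.27, adjusted p = 0.00360), likewise apart. This last call was lost with all 27 libraries in the fit. The batch 2 library labelled TRAP1 KO M2 in MPNST-CM held 18.4 CPM of Mylip, within the 14.1 to 24.5 CPM of WT M2 there. That labelled TRAP1 KO M2 in control medium held 35.7 CPM, above the 10.9 to 12.3 CPM of WT M2. These values were scaled with all 27 libraries. Mylip is an LXR target, and of 6 other genes of that program (Nr1h2, Nr1h3, Abca1, Abcg1, Pltp and Lpcat3), 4 in Mφ and 2 in M2 were higher in TRAP1 KO cells in control medium (66.7% and 33.3%, against 8.64% and 8.56% of all genes). In MPNST-CM 3 were higher and 1 lower in each cell type (50% and 16.7%, against 19.1% and 19.2% in Mφ and 17.2% and 16.8% in M2), so the share of lower genes was near that of all genes. The lower gene was Nr1h3 in Mφ and Lpcat3 in M2. Of the 6 genes, Abca1 alone, the exporter of cholesterol, was higher in TRAP1 KO cells in all 4 comparisons. Its log2 fold changes were 1.48 and 2.10 in Mφ and 1.69 and 2.38 in M2 (control medium, then MPNST-CM).

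**Figure D4:**
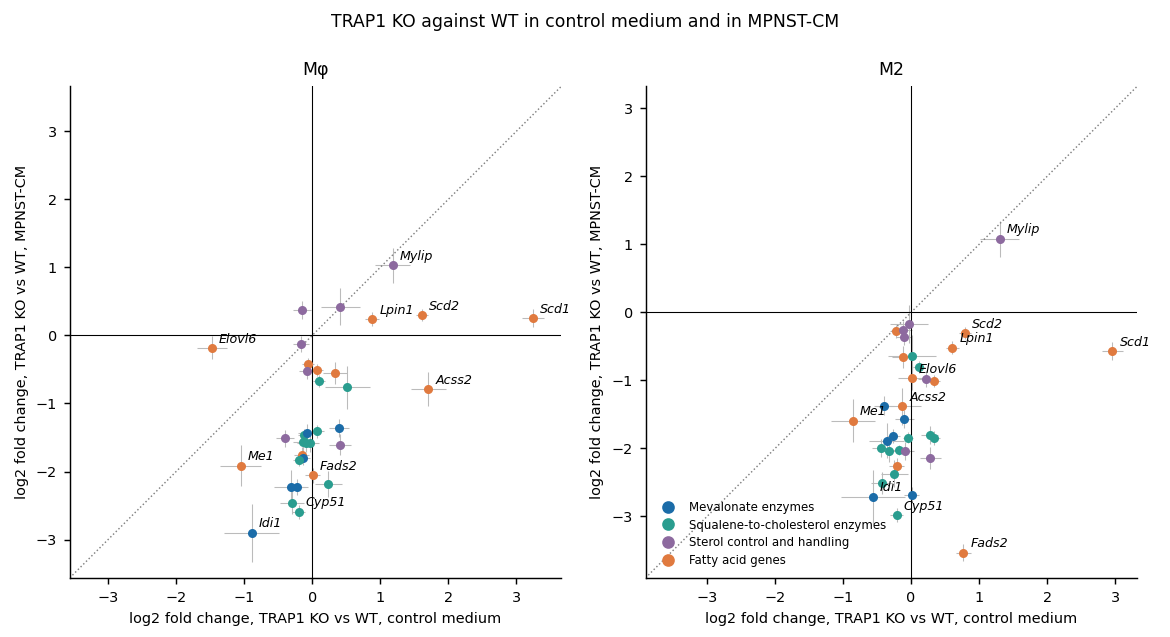
Log2 fold change of each of the 35 genes between TRAP1 KO and WT cells in control medium (horizontal axis) and in MPNST-CM (vertical axis), for Mφ (left) and M2 (right), with the standard error as bars and equal differences on the dotted line. Most sterol enzymes lie near 0 in control medium and between -2.98 and -0.64 in MPNST-CM, Scd1 lies far to the right, and Mylip is above 0 on both axes.

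Polarization was the third factor of the design. In control medium 21 of the 35 genes were higher and 3 lower in WT M2 than in WT Mφ, against 19.1% and 18.1% of all genes tested, and 18 were higher and 2 lower in TRAP1 KO cells, against 15.6% and 12.9%. In MPNST-CM the numbers were 7 higher and 0 lower in WT, against 11.9% and 13%, and 0 higher and 7 lower in TRAP1 KO cells, against 6.71% and 4.47%. The median log2 fold change of the 35 genes in these 4 comparisons was 0.45, 0.30, 0.15 and -0.14, and that of all genes -0.035, -0.028, -0.052 and 0.0082. In control medium 12 of 17 sterol enzymes were higher in WT M2 and 10 in TRAP1 KO M2, Cyp51 among them (0.99 ± 0.094 and 0.98 ± 0.095), as was Scd2 (1.74 ± 0.089 and 0.92 ± 0.086). Mylip was lower in M2 in both genotypes (-1.37 ± 0.28 and -1.24 ± 0.26). The 7 genes lower in TRAP1 KO M2 than in TRAP1 KO Mφ in MPNST-CM were Fdps, Fdft1, Stard4, Fasn, Scd1, Fads1 and Fads2. The response to MPNST-CM was also compared between M2 and Mφ as an interaction, again with signs kept, so that a lower response can be a larger fall. In WT cells it was higher in M2 for 2 genes (Fads2 and Lpin1) and lower for 8, against 5.23% and 6.91%. In TRAP1 KO cells it was higher for 0 and lower for 16, against 5.48% and 6.01%. Of these 16 genes 9 were sterol enzymes, led by Fdft1 (-1.05 ± 0.22) and Fdps (-1.04 ± 0.17). The 2 higher responses in WT cells fell to 1 or 0 without any 1 of the 12 libraries other than replicate 1 of WT Mφ in control medium, replicate 2 of WT Mφ in MPNST-CM and replicate 1 of WT M2 in MPNST-CM. In TRAP1 KO cells 1 gene had a higher response without replicate 3 of M2 in control medium, and 1 gene was lower in WT M2 than in WT Mφ in MPNST-CM without replicate 2 of WT Mφ. Including the WT Mφ library of batch 2 lowered the number of genes higher in WT M2 in control medium to 14 (25 libraries), and including its 2 TRAP1 KO libraries as well lowered it to 6 (27 libraries).

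**Figure D5:**
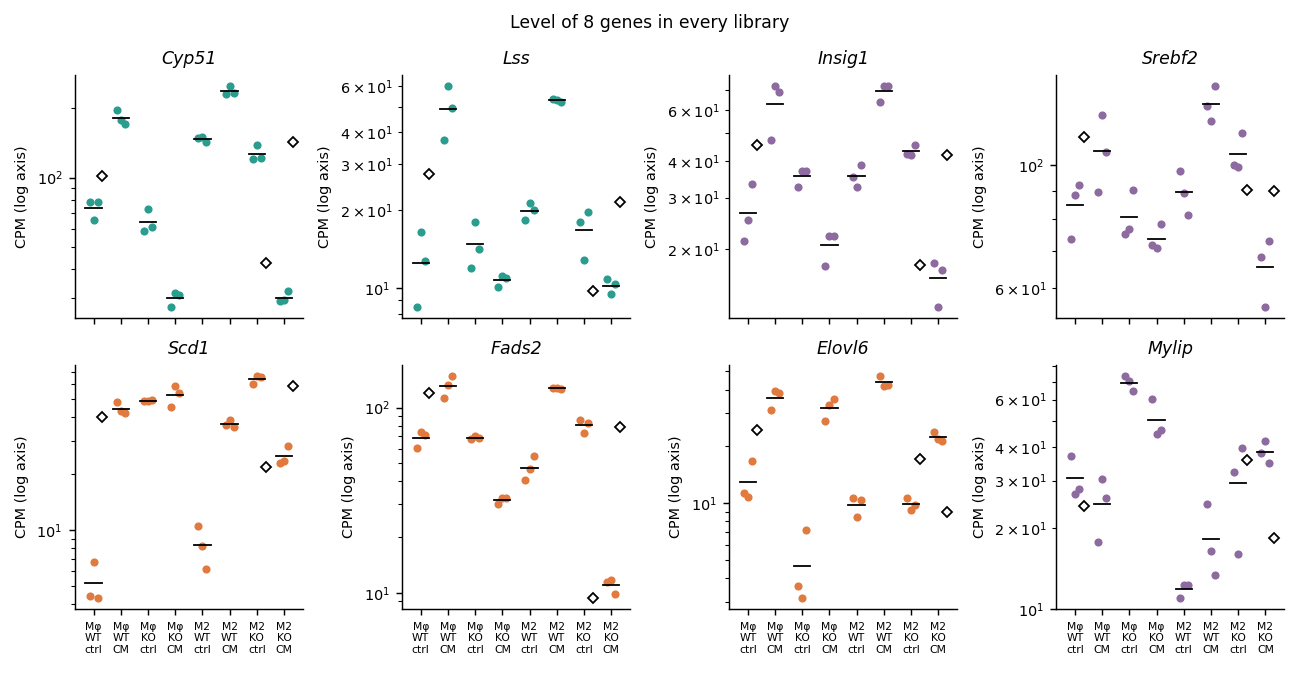
CPM of 8 of the genes in every library on a logarithmic axis, by group (ctrl, control medium; CM, MPNST-CM). Dots are libraries of batch 1, lines their means, and open diamonds the libraries of batch 2, scaled with all 27 libraries. In batch 1, Cyp51, Lss, Insig1 and Fads2 are highest in WT and lowest or among the lowest in TRAP1 KO cells in MPNST-CM. Among the batch 1 groups Elovl6 is high in MPNST-CM in both genotypes, and Scd1 is low in WT cells in control medium alone. Mylip is above the matching WT group in each TRAP1 KO group of batch 1. Its diamond for TRAP1 KO M2 in MPNST-CM lies within the range of WT M2 in MPNST-CM.

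Other genes of the same pathways, from a list of 37 names of which 35 were tested (accessory sterol enzymes, SREBP processing, accessory fatty acid enzymes and LXR genes), moved in smaller numbers. In WT cells 15 were higher and 1 lower in MPNST-CM in Mφ (42.9% and 2.86% of the 35, against 11.3% and 9.96% of all genes). In WT M2 7 were higher and 6 lower (20% and 17.1%, against 11.2% and 13.3%). Their medians were 0.17 and -0.041. In TRAP1 KO cells 8 were higher and 6 lower in Mφ (22.9% and 17.1%, against 14.8% and 18.1%). In TRAP1 KO M2 3 were higher and 17 lower (8.57% and 48.6%, against 16.7% and 20.2%). Their medians were -0.088 and -0.31. Between genotypes in MPNST-CM, 5 were higher and 12 lower in TRAP1 KO Mφ (14.3% and 34.3%, against 19.1% and 19.2%). In M2 5 were higher and 16 lower in TRAP1 KO cells (14.3% and 45.7%, against 17.2% and 16.8%). The shares of lower genes in TRAP1 KO Mφ in MPNST-CM against control medium, and of higher genes between genotypes, were thus near or below those of all genes. Aacs, which feeds ketone bodies into lipid synthesis, rose in WT cells in both cell types (1.01 and 0.75), as did Slc25a1, the mitochondrial exporter of citrate (0.64 and 0.58). None of the 6 tested genes of SREBP processing (among them the proteases Mbtps1 and Mbtps2) passed between media in Mφ of either genotype.

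Markers of cycling cells differed between groups as well, and not always in the same direction as the sterol enzymes. Mki67 and Top2a together were at 435 to 739 CPM in WT Mφ in control medium and 520.2 to 890.3 CPM in MPNST-CM, and at 191 to 306 CPM and 35.9 to 68.0 CPM in TRAP1 KO Mφ. In M2 they were at 143 to 153 CPM and 248 to 462 CPM in WT and at 184 to 209 CPM and 55.8 to 69.2 CPM in TRAP1 KO cells. In MPNST-CM the sums were lower in TRAP1 KO than in WT cells, as were 16 of the 17 sterol enzymes. In WT Mφ the media overlapped, while 15 of the 17 enzymes rose. In Mφ in control medium the sums were lower in TRAP1 KO cells too, where 0 of the 17 passed between genotypes. In WT cells in control medium they were lower in M2 than in Mφ, where 12 of the 17 were higher. The part of these markers in the result was not tested. The list of 4 genes of the IL-4 response summed to 715 to 749 CPM and 1171 to 1349 CPM in WT Mφ and to 681 to 753 CPM and 2545 to 2665 CPM in TRAP1 KO Mφ (control medium, then MPNST-CM). In M2 it summed to 2789.9 to 2819.6 CPM and 3776 to 4026 CPM in WT and to 2629 to 2907 CPM and 3861 to 4344 CPM in TRAP1 KO cells. Its part was not tested either. The 3 endothelial names summed to 16.8 to 21.4 CPM and 51.2 to 56.7 CPM in WT Mφ and to 26.1 to 32.5 CPM and 39.5 to 40.5 CPM in TRAP1 KO Mφ. In M2 the sums went from 3.15 to 3.63 CPM to 19.6 to 28.8 CPM in WT and from 4.00 to 5.36 CPM to 42.99 to 44.4 CPM in TRAP1 KO cells. Tek, a defining marker, was at 0 in every group, and the part of these genes was not tested.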

How the data were processed

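3′ RNA sequencing (QuantSeq) of 27 libraries of mouse macrophages was analysed. The authors deposited raw counts per gene: per the labels and the study's methods, reads were trimmed with Trimmomatic, checked with FastQC, aligned with HISAT2, filtered with SAMtools at a mapping quality of 20 and counted with featureCounts. The labels name mm39 and the methods text another build, so the build of the counts is not settled and no coordinate of them is printed. Of 32 columns in the table, 5 matched no library described here and were not used.

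Library totals were 7037684 to 11152362 counts. A count of 0 allows up to 3 counts, a floor that covers counting error only. The main fit took the 24 libraries of batch 1 (8 groups of 3) in 1 model of edgeR 4.0.16 in R 4.3.3 (filterByExpr, TMM factors, robust quasi-likelihood test), with Benjamini-Hochberg adjustment over 13614 genes at 0.05. Batch 2 (3 libraries) entered as an alternative. In a test on simulated data with 200 genes changed 4-fold in the comparison of media in WT Mφ, edgeR recovered 96.5% of them with 4 false calls among the 14428 genes tested, and DESeq2 1.42.0 recovered 97.0% with 13 false calls among 22189.

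Values in every library were given for Srebf1, Srebf2, Insig1 and, in each of the 4 sets and each of the 4 comparisons of media and 4 of genotypes, the gene with the largest log2 fold change in either direction among those past the threshold. The 35 genes, the lists and the alternatives (DESeq2, other size factors, no filter, compared groups alone, a replicate block, each library left out, batch 2) were chosen with earlier results of these data known. Promoter sequences are from RefSeq on GRCm38.p6.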

Additional observations from a re-analysis of the deposited data

Results flagged for a closer look

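In 3 of the 12 sets of 4 libraries examined for a library that stands apart (3 groups with a library in batch 2, 4 sets of genes), the batch 2 library lay past Dixon's critical value, which chance alone passes in about 1 of 20 such groups. The mean log2 CPM of the squalene-to-cholesterol enzymes was 4.22 in replicate 4 of TRAP1 KO M2 in control medium and 5.12 to 5.21 in replicates 1 to 3. In replicate 4 of TRAP1 KO M2 in MPNST-CM the same mean was 5.42, against 4.17 to 4.22 in replicates 1 to 3, and the mean of the fatty acid genes was 5.38, against 4.63 to 4.75. Both libraries thus lay near the level that batch 1 had in the other medium, and both are also those whose whole profile was closest to another group.

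By the interaction tests, responses to MPNST-CM differed between genotypes or cell types. These compare log2 fold changes with their signs, so a negative or lower value can also be a reversal or a larger fall. Between genotypes in Mφ, the interaction was negative for 26 of the 35 genes and positive for 1, against 11.5% and 8.17% of all genes. In M2 it was negative for 27, against 10.8%. Between M2 and Mφ, the response was lower for 8 genes in WT and 16 genes in TRAP1 KO cells, against 6.91% and 6.01% of all genes. It was higher for 2 genes in WT cells, or 5.71% of the 35, a share near the 5.23% of all genes.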

How the results depend on the processing

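Of the 312 calls on the 35 genes in 16 comparisons, 124 kept their direction and side of the threshold under every alternative, and batch 2 moved the counts most. With all 27 libraries, MPNST-CM gave 17 higher in WT Mφ, 1 lower in TRAP1 KO Mφ, 15 higher in WT M2, and 0 higher and 2 lower in TRAP1 KO M2. TRAP1 KO against WT then gave 3 higher and 1 lower in Mφ and 2 and 0 in M2 in control medium, and 1 higher in Mφ and 0 in M2 in MPNST-CM. M2 against Mφ gave 6 higher and 1 lower in WT and 4 higher in TRAP1 KO in control medium, and 1 higher in WT and 0 lower in TRAP1 KO in MPNST-CM. Genotype and medium interacted for 13 lower in Mφ and 8 in M2, and cell type and medium for 0 in either direction in WT and 1 lower in TRAP1 KO cells. With batch as a covariate, the values that moved were 17 higher in WT M2, 1 lower in TRAP1 KO Mφ and 0 higher and 5 lower in TRAP1 KO M2 between media, 1 lower in Mφ and 2 and 0 in M2 between genotypes in control medium and 1 higher in Mφ in MPNST-CM, 6 and 1 in WT, 5 higher in TRAP1 KO, 1 higher in WT and 0 lower in TRAP1 KO between cell types, and interactions of 0 and 16 in Mφ, 15 lower in M2, 0 and 0 in WT and 1 lower in TRAP1 KO cells. Without the 2 TRAP1 KO libraries of batch 2 (25 libraries, chosen after seeing the data), 9 in Mφ and 0 in M2 were lower in TRAP1 KO cells in control medium, 1 was higher in TRAP1 KO Mφ in MPNST-CM, 3 were higher in WT M2 and 4 lower in TRAP1 KO M2 than in Mφ in MPNST-CM, and cell type and medium interacted for 4 higher and 1 lower in WT cells.

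The single gene lower in TRAP1 KO M2 in control medium became 2 with DESeq2, 3 with median-of-ratios size factors, 2 without a filter and 5 with the compared groups alone, which also gave 1 higher in TRAP1 KO Mφ and 4 higher in WT M2 in MPNST-CM. Without a filter, genotype and medium interacted for 2 higher in Mφ, and cell type and medium for 4 higher and 5 lower in WT cells. Libraries with the same replicate number deviated together more than others did. The mean correlation of deviations was 0.107 over 77 same-numbered pairs (34 of them above 0.1, the lowest at -0.214). It was -0.0451 over 175 other pairs (30 of them above 0.1). By chi-square, replicate 1 lay further from replicates 2 and 3 than these from each other in every Mφ group and in WT M2 in MPNST-CM. Neither TRAP1 KO M2 group showed this. In TRAP1 KO M2 in control medium replicate 2 stood apart, at 10.8 and 13.1 per degree of freedom, against 4.26 between replicates 1 and 3. WT M2 in control medium has replicates 2, 3 and 4 and could not be examined for replicate 1. The main fit did not use the replicate numbers. The fit with a replicate block gave 2 lower in TRAP1 KO M2 in control medium, 1 lower in WT M2 in MPNST-CM and 2 higher for genotype and medium in Mφ, and moved no other count by over 1.5 times. In that fit replicate 4 of WT M2 in control medium was alone in its block. This group thus rested there on replicates 2 and 3. With each library left out in turn, the counts that moved were 2 to 4 higher in TRAP1 KO Mφ between media, 1 to 3 lower in Mφ and 0 to 3 lower in M2 between genotypes in control medium, 0 to 1 lower in WT M2 than in WT Mφ in MPNST-CM, and 1 to 2 higher (genotype and medium, Mφ), 0 to 2 higher (cell type and medium, WT) and 0 to 1 higher (TRAP1 KO). The cause was not tested.

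Directions turned in few cases. Scd1 in WT M2 against WT Mφ in control medium was at -0.79 with all 27 libraries, -0.037 with batch as a covariate and -0.84 with 25 libraries, and its interaction of cell type and medium in WT cells at 0.54 and 0.58 with 27 and 25. In TRAP1 KO cells the interaction of Ebp was 0.022 with 27 libraries and 0.020 with batch as a covariate, and that of Cyp51 0.22 with 27. The mean of the sterol control genes between media in TRAP1 KO Mφ was 0.0025 as gene-wise z-scores. Depth limits the scarcest genes (Idi1, Tm7sf2, Me1, Acss2 and Mvk) most.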
